A study of Mus musculus with 3 samples.

Results

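Cathepsins are the proteases of the lysosome, and 10 of their genes were followed here in the stromal cells of mouse lymph nodes: Ctsa, Ctsb, Ctsc, Ctsd, Ctsh, Ctsk, Ctsl, Ctso, Ctss and Ctsz. They were taken by gene symbol, and all 10 were among the 51912 genes of the count tables. The study immunized C57BL/6 mice with antigen immune complexes (IC). Sorted lymph node cells were positive for Podoplanin and TdTomato and negative for CD31 and CD45. TdTomato is a red fluorescent protein, named together with Cre recombinase in the study's transgene (Cxcl13-Cre/tdTomato). All 3 libraries carry this CXCL13-TdTomato+ genotype. Whether TdTomato marks current or past use of the Cxcl13 promoter is not stated in the sources used here. The conditions sequenced with 10x 3' chemistry were 2-IC, with one antigen-IC given 7 days and another given 24 h before the analysis, in 2 libraries, and 1-IC, with a single antigen-IC given 24 h before, in 1 library. The methods state that nodes of 6 mice were pooled per condition. They also name 3 independent experiments, and a figure legend of the study gives 6 to 7 mice for each. Which library came from which experiment is not stated. The ages of the mice and which mice went into which of the 2-IC libraries are not given in the sources used here, and the short descriptions of these libraries conflict on the time of injection, so they were grouped by their titles.

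Cathepsins are made as inactive precursors, are activated by cleavage in acid compartments and degrade proteins that the cell has taken up or recycled. In antigen-presenting cells, Ctss and Ctsl trim the invariant chain of MHC class II, and other cathepsins cut proteins into peptides. Follicular dendritic cells (FDC) are stromal cells of the B cell follicle that hold intact antigen on their surface through the complement receptor CR2, and the reticular cells around them form the scaffold and the chemokine fields of the follicle. Cystatins and some serpins bind cathepsins and block them.

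The tables held 5486 barcodes, of which 2243 had at least 200 genes, at most 10% mitochondrial UMIs and no UMI of the 13 genes by which the study left out contaminating cells. The libraries held 20607903, 12788101 and 3766526 UMIs for 2-IC replicate 1, 2-IC replicate 2 and 1-IC. Barcodes with a Cr2 UMI, no Tyrobp UMI and at least 2 UMIs of 10 stromal genes are called Cr2-positive and numbered 129, 35 and 38 in these libraries. Stromal barcodes with neither gene, called other stroma, numbered 1304, 333 and 250. Barcodes with a UMI of Tyrobp, an adaptor of myeloid and NK cell receptors, and none of Cr2 are called Tyrobp-positive and numbered 65, 17 and 18. Those 76 barcode sequences that occurred in both 2-IC libraries had a median of 782.5 UMIs in replicate 1 and 32618.5 in replicate 2, and their profiles had a median correlation of 0.483 between the libraries against 0.33 for shuffled pairs. A further 2 barcodes were shared by 2-IC replicate 1 and 1-IC. Among retained barcodes, 41, 20 and 1 were shared ones. Calls between these classes that changed without them are given both ways.

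Labels were checked on marker lists, by their UMIs per 1000000 UMIs of the summed class (CPM). The 8 FDC genes reached 15515 to 28892 CPM in Cr2-positive barcodes and 7174 to 9694 CPM in other stroma, where Cr2 is 0 by the rule. Without Cr2 the list was at 14141 to 27923 CPM in Cr2-positive barcodes. Of 14 myeloid genes, 10 were detected in Cr2-positive barcodes, at 254 to 334 CPM, with Adgre1, Itgam, Itgax and, by the rule, Tyrobp at 0, against 76.4 to 206 CPM in other stroma. Tyrobp-positive barcodes ranged from 311 to 4893 CPM of myeloid genes, or 230.4 to 4244 CPM without Tyrobp itself, lacked Adgre1 and Itgam, and still held 7884 to 16200.3 CPM of the stromal genes, so they are described by their rule and not as a cell type. The B cell list summed to 434 to 799.6 CPM in Cr2-positive barcodes, 236 to 803 CPM in other stroma and 392 to 6573 CPM in Tyrobp-positive barcodes. The part of these foreign RNAs in the cathepsin levels was not tested.

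Counts were summed per library and class, so that n is 3 libraries throughout and cells are not treated as replicates. Because 3' counts depend on how well each gene's end is captured, levels are compared between classes of barcodes and not between genes. In Cr2-positive barcodes, 5 of the 10 cathepsins differed from other stroma by edgeR's quasi-likelihood test, against 19.9% of all 6298 genes tested. Ctsh, Ctsd and Ctss were higher, against 10.5% of all genes, and Ctsc and Ctsk were lower, against 9.37%. The median log2 fold change of the 10 was -0.34, beside -0.01 over all genes. With the library as a block, p-values weigh the difference between classes against its variation from library to library, moderated by edgeR over all genes. That variation may be partly technical.

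Ctsh, a lysosomal cysteine protease that acts mainly as an aminopeptidase, stood furthest from other stroma (ENSMUSG00000032359, chr9:90054152-90076089, plus strand, GRCm38). In Cr2-positive barcodes it was at 1202 CPM in 2-IC replicate 1, 739 CPM in 2-IC replicate 2 and 1073 CPM in 1-IC. In other stroma it was at 169, 96.2 and 126 CPM. The lowest Cr2-positive library was thus above the highest library of other stroma, and within each library the ratio was 7.12, 7.68 and 8.5. The fitted log2 fold change was 2.96 ± 0.25 (SE, n = 3 libraries; 7.78-fold), with an adjusted p of 2.51e-09, and 96 of 6298 genes had a larger one. It was called under all 16 alternative settings, with log2 fold changes from 2.25 to 3.28.

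Ctsh also made up a larger part of the cathepsin RNA. It supplied 32.1%, 29.7% and 34.8% of the UMIs of the 10 genes in Cr2-positive barcodes of the 3 libraries, against 6.08%, 3.98% and 4.86% in other stroma. All 10 together summed to 3105 ± 630.5 CPM (SD, n = 3) in Cr2-positive barcodes and 2598 ± 179 CPM in other stroma. In single barcodes, the median was 10.3, 5.47 and 11.1 Ctsh UMIs per 10000 in Cr2-positive barcodes and 0 in other stroma of every library. The upper quartile of Cr2-positive barcodes was 18.5, 11.8 and 15.1 per 10000 and the lower quartile 0, 1.16 and 4.90, so Ctsh was unevenly spread among them. The tenth of Cr2-positive barcodes with the most Ctsh UMIs held 37.0%, 38.3% and 29.0% of them. In other stroma this share was 52.9%, 50.1% and 62.9%, and in Tyrobp-positive barcodes 49.3%, 57.1% and 52.4%. Uneven spread was thus not particular to Cr2-positive barcodes, and a ranking by UMIs also follows depth. A Ctsh UMI was seen in 79.2 ± 6.84% (SD, n = 3) of Cr2-positive barcodes and in 42.1 ± 7.91% of other stroma. After thinning to 2000 UMIs, which left out 21, 1 and 4 Cr2-positive barcodes and 170, 36 and 33 of other stroma, the shares were 65.7 ± 11.9% and 17.7 ± 5.25%. No class known to lack Ctsh was present to set the level of free RNA.

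**Figure D1:**
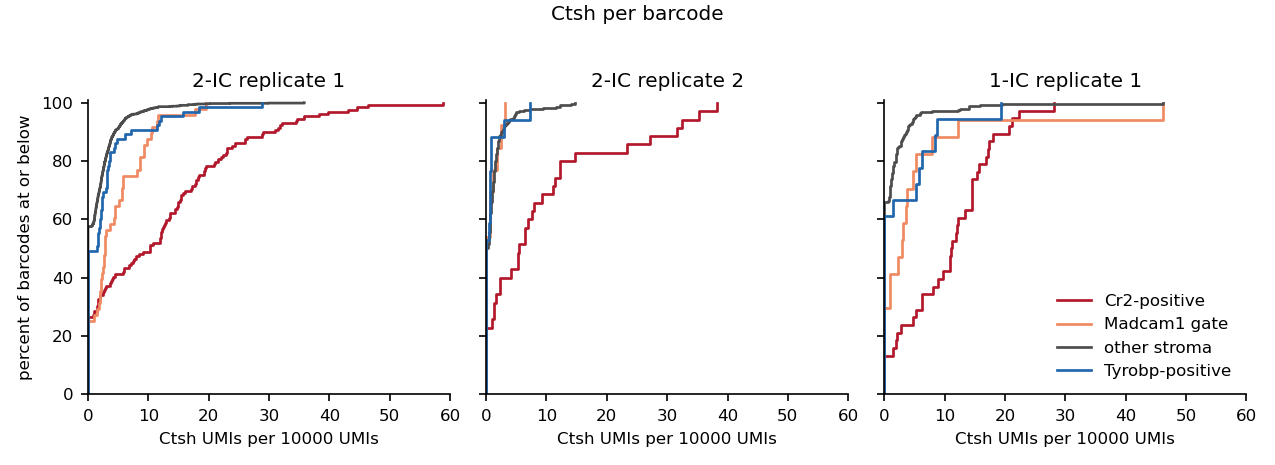
Cumulative share of barcodes (y axis) by Ctsh UMIs per 10000 UMIs of the barcode (x axis), 1 panel per library and 1 line per class of barcodes. At the middle of the range the lines of Cr2-positive barcodes lie to the right of those of other stroma, the Madcam1 gate and Tyrobp-positive barcodes in all 3 libraries, with medians of 10.3, 5.47 and 11.1, while the medians of other stroma are 0.

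Ctsd, the main aspartic protease of the lysosome (ENSMUSG00000007891, chr7:142375911-142388038, minus strand), was also higher in Cr2-positive barcodes. Its levels there were 511.5, 314 and 346 CPM in 2-IC replicate 1, 2-IC replicate 2 and 1-IC. Other stroma held 218, 160.2 and 173 CPM, and the classes did not overlap. The log2 fold change was 1.09 ± 0.20 (SE; 2.13-fold, adjusted p 0.00018). With the study's contaminant genes allowed it was 0.55 (adjusted p 0.208), and without the library as a block 1.10 (adjusted p 0.0705). Ctsd shares its strand with the gene model Gm49369, so some of its UMIs may belong to that model.

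Ctss (ENSMUSG00000038642), a cysteine protease that stays active at neutral pH, was at 99.4, 76.7 and 79.6 CPM in Cr2-positive barcodes. In other stroma it was at 45.5, 35.2 and 65.3 CPM, so the classes did not overlap, although the ratio was 2.18 in each 2-IC library and 1.22 in 1-IC. The log2 fold change was 0.92 ± 0.24 (SE; 1.90-fold, adjusted p 0.00532). Ctss was not called without 2-IC replicate 1 (0.74, adjusted p 0.236), with DESeq2 (0.94, adjusted p 0.0623) or without the block (0.85, adjusted p 0.314). The myeloid list, whose cells are a known source of Ctss, was also higher in Cr2-positive barcodes (254 to 334 against 76.4 to 206 CPM), and its part in this difference was not tested.

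Ctsc, or dipeptidyl peptidase I, which activates the serine proteases of granules (ENSMUSG00000030560, chr7:88278085-88310888, plus strand), was lower in Cr2-positive barcodes. It stood at 100.7, 83.9 and 48.5 CPM there and at 146, 311 and 116 CPM in other stroma, with no overlap. The log2 fold change was -1.18 ± 0.24 (SE; 2.26-fold lower, adjusted p 0.000713), and without the block it was -1.24 (adjusted p 0.0673). Ctsk (ENSMUSG00000028111), the collagen-degrading cathepsin best known from osteoclasts, was at 74.6, 55.2 and 55.4 CPM in Cr2-positive barcodes. Other stroma held 109, 91.8 and 133 CPM of Ctsk, again without overlap. Its log2 fold change was -0.79 ± 0.21 (SE; 1.73-fold lower, adjusted p 0.00711). Ctsk was not called without 1-IC (-0.64, adjusted p 0.0754), after thinning (-0.30, adjusted p 0.606) or without the block (-0.81, adjusted p 0.168).

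The other 5 cathepsins did not pass the test between Cr2-positive barcodes and other stroma. Ctsb, an endopeptidase that also removes dipeptides, was at 439.5, 343 and 294 CPM in Cr2-positive barcodes and 561, 541 and 456 CPM in other stroma. Those ranges do not overlap, and the log2 fold change was -0.52 ± 0.20 (SE, adjusted p 0.0656). It was called under 4 of 16 alternatives, DESeq2 among them (adjusted p 0.0231). Ctsl, another endopeptidase of broad specificity, was at 808, 489 and 796 against 1011, 775 and 1112 CPM. Its ranges overlapped, although within each library it was lower in Cr2-positive barcodes, with ratios of 0.80, 0.631 and 0.716. The log2 fold change of Ctsl was -0.47 ± 0.21 (adjusted p 0.126). It was called under 1 of 16 alternatives, with at least 2 UMIs of the gate gene (-0.64, adjusted p 0.0193). Ctsa, a carboxypeptidase that also shields lysosomal neuraminidase and galactosidase, averaged 60.9 ± 32.1 against 94.6 ± 10.8 CPM (SD), a log2 fold change of -0.60 ± 0.24 (adjusted p 0.0856). It was called without 2-IC replicate 2 (-0.86, adjusted p 0.0316). Ctsz, another carboxypeptidase, averaged 321 ± 62.8 and 301 ± 46.0 CPM, and Ctso, a little-studied member of the papain family, 45.7 ± 5.82 and 52.2 ± 14.1 CPM. Their log2 fold changes were 0.10 ± 0.20 (adjusted p 0.794) and -0.21 ± 0.22 (adjusted p 0.589).

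**Figure D2:**
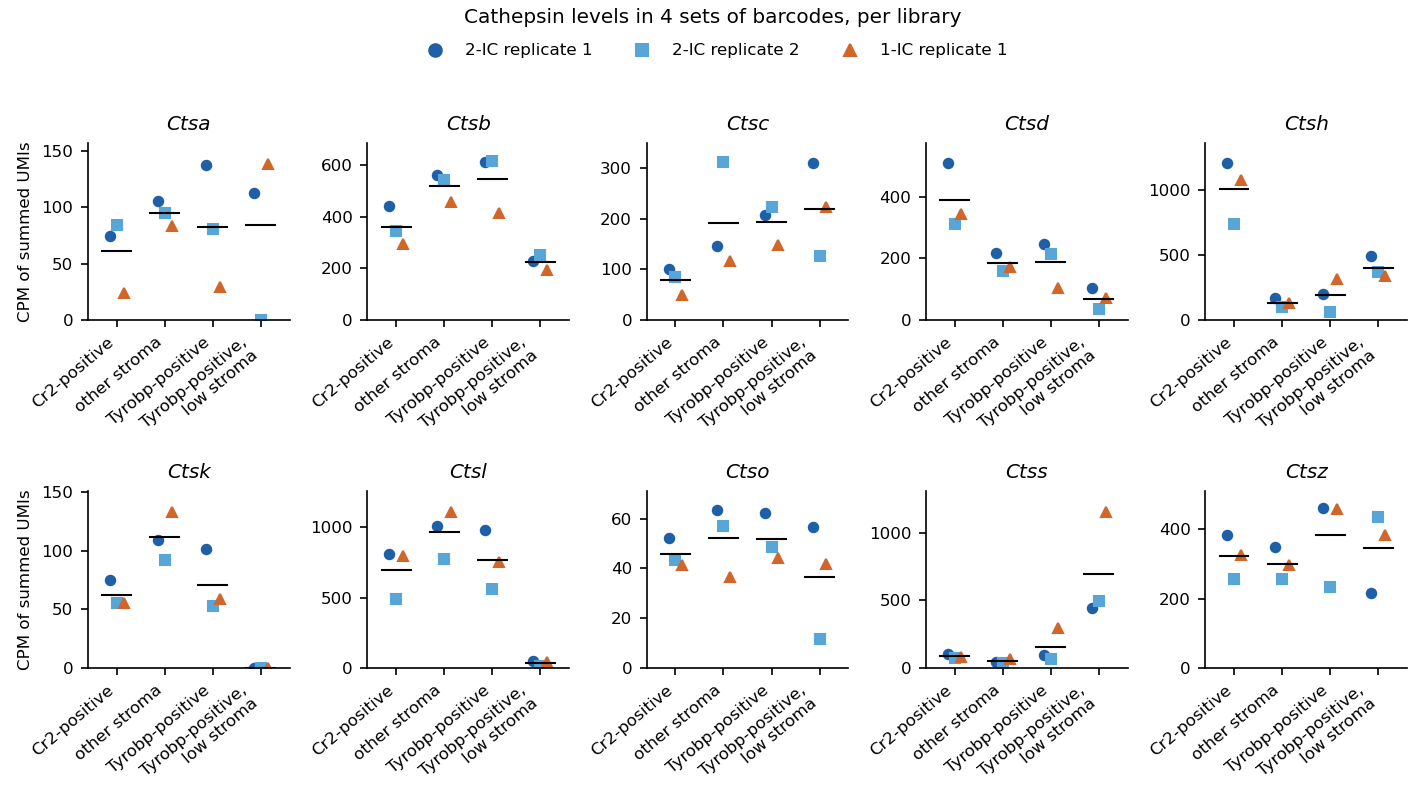
CPM of summed UMIs (y axis, from 0) of each cathepsin in Cr2-positive barcodes, other stroma, Tyrobp-positive barcodes and Tyrobp-positive barcodes low in stromal RNA (x axis); each point is 1 library and each bar the mean of 3 libraries. Ctsh is at 739 to 1202 CPM in Cr2-positive barcodes and at 96.2 to 169 CPM in other stroma, and Ctsk is at 0 in the Tyrobp-positive barcodes low in stromal RNA.

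Ctsk and Ctss are neighbours on chromosome 3, on the same strand, and 17424 bases lie between them. Ctsk spans chr3:95499256-95509362 and Ctss chr3:95526786-95556403 (GRCm38). In the same contrast Ctss was higher and Ctsk lower, so the letters before each start are shown from RefSeq (GRCm38.p6), together with the stretch before Ctsd. Capitals mark CACGTG, the palindromic core of the E-box to which lysosomal gene regulators of the TFEB family bind, and it reads the same on both strands.
Ctsk, chr3:95498960-95499209, plus strand: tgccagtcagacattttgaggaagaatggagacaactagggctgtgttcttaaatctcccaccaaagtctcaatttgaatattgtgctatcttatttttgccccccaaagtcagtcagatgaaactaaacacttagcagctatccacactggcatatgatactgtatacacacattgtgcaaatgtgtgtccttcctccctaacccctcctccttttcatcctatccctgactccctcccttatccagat
Ctss, chr3:95526536-95526785, plus strand: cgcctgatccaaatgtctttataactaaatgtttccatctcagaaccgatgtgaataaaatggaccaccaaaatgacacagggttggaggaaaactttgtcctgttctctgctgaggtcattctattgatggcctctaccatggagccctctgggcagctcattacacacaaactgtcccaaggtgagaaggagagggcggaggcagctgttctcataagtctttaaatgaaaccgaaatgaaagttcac
Ctsd, chr7:142388039-142388077, minus strand: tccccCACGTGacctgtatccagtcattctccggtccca
Windows of 250 bases were matched for 8 of the 10 cathepsins, in 9 windows, of which 3 held CACGTG, against 6.02% of all 32851 windows. Ctsh and Ctsb had no window and were not searched for the motif. The 3 windows with CACGTG belonged to Ctsd, with 2 matches, and to Ctsl and Ctsa, with 1 each. Of the 2 Ctsd matches, 1 lay before the gene span used here. The Ctsl window and the matching Ctsa window lay wholly inside their gene spans, and the other Ctsa window, before the span, held 0. The motif was thus found in the windows of 1 gene that was higher in Cr2-positive barcodes and of 2 that did not pass the test. A match describes the letters only.

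Tyrobp-positive barcodes were compared with other stroma next. Only Ctss passed the test, against 0.572% of all genes. It was at 98.9 CPM in 2-IC replicate 1, 68.7 CPM in 2-IC replicate 2 and 295 CPM in 1-IC, above other stroma in every library. The log2 fold change was 1.3 ± 0.28 (SE; 2.47-fold, adjusted p 0.0302). This call was lost without 2-IC replicate 1 (1.47, adjusted p 0.204), without 1-IC (1.02, adjusted p 0.0938) and with at most 5% mitochondrial UMIs (1.33, adjusted p 0.0719). In a setting added after the data were seen, it was also lost without the shared barcodes (1.19, adjusted p 0.157). Why the call was lost was not tested. Ctsh, at 195, 56.6 and 309.5 CPM, overlapped other stroma (log2 fold change 0.23, adjusted p 0.939), and Ctsk, at 101.5, 52.5 and 58.9 CPM, gave -0.53 (adjusted p 0.56). The other 7 had log2 fold changes from -0.36 for Ctsl to 0.26 for Ctsz and adjusted p-values from 0.744 to 0.999. In the same comparison the class II genes H2-Aa, H2-Eb1 and Cd74 rose by 2.97, 2.70 and 1.64 on the log2 scale (adjusted p 0.00404, 0.00103 and 0.0349). They were 3 of 5 tested. Their levels varied widely among libraries, at 965.5 ± 1277.3, 621.3 ± 687.8 and 2246.5 ± 2636.2 CPM (SD, n = 3). Other stroma held 67.9 ± 29.3, 63.0 ± 33.2 and 502.1 ± 279.4 CPM. The contaminant genes include Ptprc, and with them allowed the Tyrobp-positive class held 202, 44 and 45 barcodes. Then 6 of 10 cathepsins were called, where 1868 of 11228 genes were. Beside Ctss, edgeR called Ctsh (0.97, adjusted p 0.0065), Ctsc (0.69, 0.0393) and Ctsz (0.53, 0.0189) higher. It called Ctsk (-1.11, adjusted p 0.00183) and Ctsl (-0.80, 0.0158) lower.

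Cr2-positive barcodes were then set against Tyrobp-positive ones, where 8.7% of all genes were called. Ctsh was higher by 2.73 ± 0.29 on the log2 scale (SE; 6.61-fold, adjusted p 8.21e-07). Ctsd was higher by 1.00 ± 0.23 (2.00-fold, adjusted p 0.00579), and Ctsc was lower by 2.28-fold (-1.19 ± 0.28, adjusted p 0.00678). Without 2-IC replicate 1, Ctsh alone was called, and Ctsd gave 1.02 (adjusted p 0.191) and Ctsc -1.34 (adjusted p 0.0881). Ctsd gave 0.27 with contaminant genes allowed (adjusted p 0.687) and 0.84 with at least 2 gate UMIs (adjusted p 0.373). Ctss, called against other stroma in both classes, had a log2 fold change of -0.38 between them (adjusted p 0.554). It was called lower in Cr2-positive barcodes with contaminant genes allowed (-1.75, adjusted p 0.00326) and with at least 2 gate UMIs (-1.43, adjusted p 0.0361). The other 6 had log2 fold changes from -0.57 for Ctsb to -0.11 for Ctsl, with adjusted p-values of at least 0.113.

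**Figure D3:**
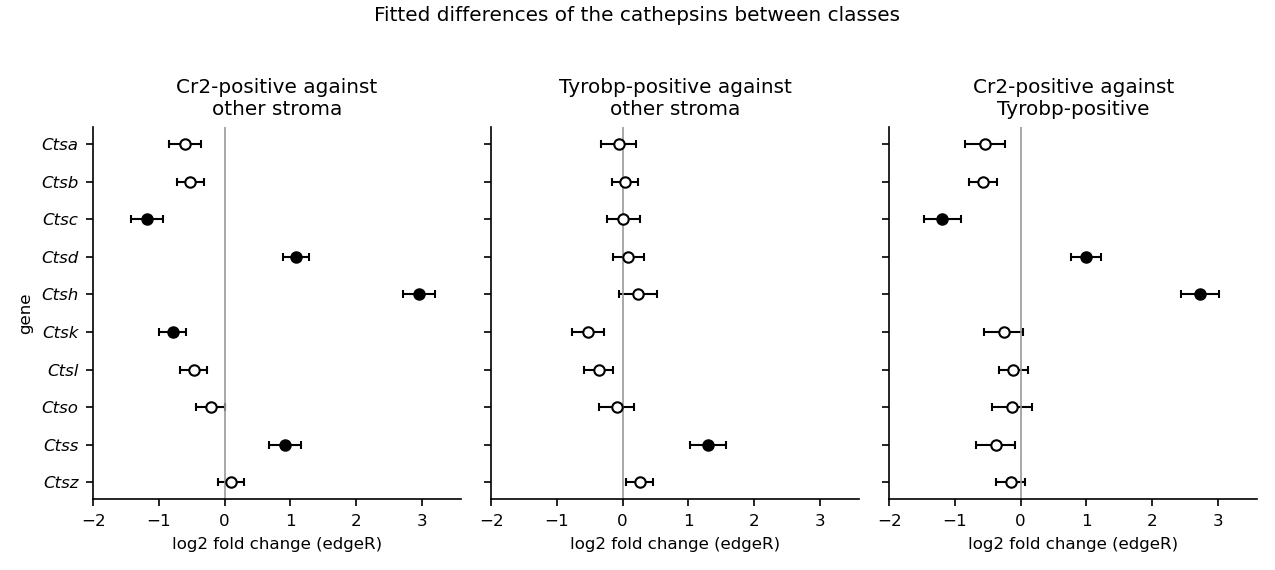
Log2 fold changes fitted by edgeR (x axis) of the 10 cathepsins (y axis) for the 3 comparisons between classes; bars are ± 1 SE and filled points have an adjusted p under 0.05. Ctsh lies at 2.96 and 2.73 for Cr2-positive barcodes against other stroma and against Tyrobp-positive barcodes, and at 0.23, unfilled, for Tyrobp-positive barcodes against other stroma.

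Because Tyrobp-positive barcodes held much stromal RNA, another set was formed after the data were seen: 32, 8 and 34 barcodes with a Tyrobp UMI and under 2 UMIs of the stromal genes, with the contaminant genes allowed. Their myeloid list summed to 3909 to 8042 CPM and their B cell list to 19601 to 28452 CPM, so they hold RNA of both kinds of cell. Against other stroma 6 of 10 cathepsins were called in this set, where 38.2% of all genes were. Ctss reached 443, 493 and 1159.7 CPM, 15.4-fold above other stroma on the fitted scale (log2 fold change 3.95, adjusted p 4.44e-09). Ctsh was at 490.0, 367 and 333 CPM, higher than in other stroma by 1.76 (adjusted p 8.86e-06). Ctsl stood at 47.1, 11.5 and 41.7 CPM, with a log2 fold change of -4.68 (adjusted p 4.12e-09). Ctsd, at 104, 34.4 and 69.4 CPM, and Ctsb, at 226, 252 and 194 CPM, were lower as well, with log2 fold changes of -1.24 (adjusted p 0.00468) and -1.07 (adjusted p 0.00132). Ctsk was called and had 0 of 337360 UMIs in this set, which allows up to 8.89 CPM, at least 11.9-fold lower than the pooled 105.7 CPM of other stroma. This limit covers counting error only. Ctsa (0.15), Ctsc (0.51), Ctso (-0.26) and Ctsz (0.34) did not pass.

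Against that set, Cr2-positive barcodes also differed in 6 of 10 cathepsins, where 36.1% of all genes were called. Ctsh was higher in Cr2-positive barcodes, by 1.19 (adjusted p 0.000466), and Ctsd by 2.30 and Ctsl by 4.18. Ctsk was called too, and is bounded by the 0 count given above. Ctss was lower in Cr2-positive barcodes, with a log2 fold change of -3.05, as was Ctsc (-1.73, adjusted p 0.00285). Ctsa (-0.74), Ctsb (0.52), Ctso (0.02) and Ctsz (-0.25) did not pass.

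Other stroma is a mixture, so it was split by single genes that mark reticular subsets. Each barcode was placed by its first UMI match in the order Madcam1, Tnfsf11, Fmod and Inmt, and those with none formed the last gate. Madcam1 marks marginal reticular cells beneath the subcapsular sinus, the study uses Fmod for cells at the T-B border, and Inmt is known from medullary ones. The study also required Madcam1 when it gated FDCs by flow cytometry. Without Cr2, the FDC list stood at 15803 to 24316 CPM in the Madcam1 gate, near the 14141 to 27923 CPM of Cr2-positive barcodes. It reached at most 10717 CPM in the Tnfsf11, Fmod and Inmt gates. Whether the Madcam1 gate holds FDCs whose Cr2 was missed was not tested. A gate by 1 gene is not a cell type. Madcam1-gated barcodes numbered 48, 13 and 17, Tnfsf11 350, 129 and 80, Fmod 171, 57 and 19, Inmt 452, 86 and 77, and no gate gene 283, 48 and 57. Among the 5 gates, Ctsh, Ctsc and Ctsk differed (adjusted p 0.000706, 0.000860 and 0.0243 by edgeR's F-test), against 11.5% of 8250 genes.

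Ctsh was highest on average in the Madcam1 gate, at 448.5 CPM in 2-IC replicate 1, 70.8 CPM in 2-IC replicate 2 and 379.9 CPM in 1-IC. Thus 1 of the 3 libraries was below its own Tnfsf11, Fmod, Inmt and ungated barcodes, at 114, 89.1, 77.9 and 74.4 CPM. In the Inmt gate Ctsh was at 135, 77.9 and 68.7 CPM and in the Fmod gate at 118, 89.1 and 79.5 CPM. The Madcam1 gate exceeded the Inmt gate by 1.44 (adjusted p 0.000115), the Fmod gate by 1.40 (adjusted p 0.000474) and the Tnfsf11 gate by 1.01 (adjusted p 0.00721) on the log2 scale. Those pairs of gates differed in 9.72%, 7.77% and 4.22% of all genes and in 5, 2 and 2 of the 10 cathepsins. The difference of Ctsh among gates was not called without 2-IC replicate 1 (adjusted p 0.293), with contaminant genes allowed (adjusted p 0.147) or without the block (adjusted p 0.333). Ctsh levels of the Tnfsf11, Fmod, Inmt and ungated barcodes overlapped one another.

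Ctsk had its lowest mean in the Madcam1 gate, at 86.5, 38.1 and 74.1 CPM, and its highest in the Fmod gate, at 118, 97 and 238.5 CPM. The log2 difference between these gates was -0.98 (adjusted p 0.0126). Its difference among gates was lost without 2-IC replicate 1 (adjusted p 0.129), without 1-IC (adjusted p 0.212), after thinning (adjusted p 0.35), with library totals only (adjusted p 0.0574) and without the block (adjusted p 0.615), and held under 9 of 14 alternatives. Ctsc was lowest in the Inmt gate, at 92.5, 199 and 58 CPM, and reached 186, 392.5 and 179 CPM in the Fmod gate, a log2 difference of 1.06 (adjusted p 0.00684), where 2.41% of genes differed. The barcodes with no gate gene held 169.9, 708 and 137 CPM of Ctsc. 2-IC replicate 2 was thus the highest library for Ctsc in these 3 gates, while in the Madcam1 gate 2-IC replicate 1 was, at 259.5 against 212 and 185 CPM.

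**Figure D4:**
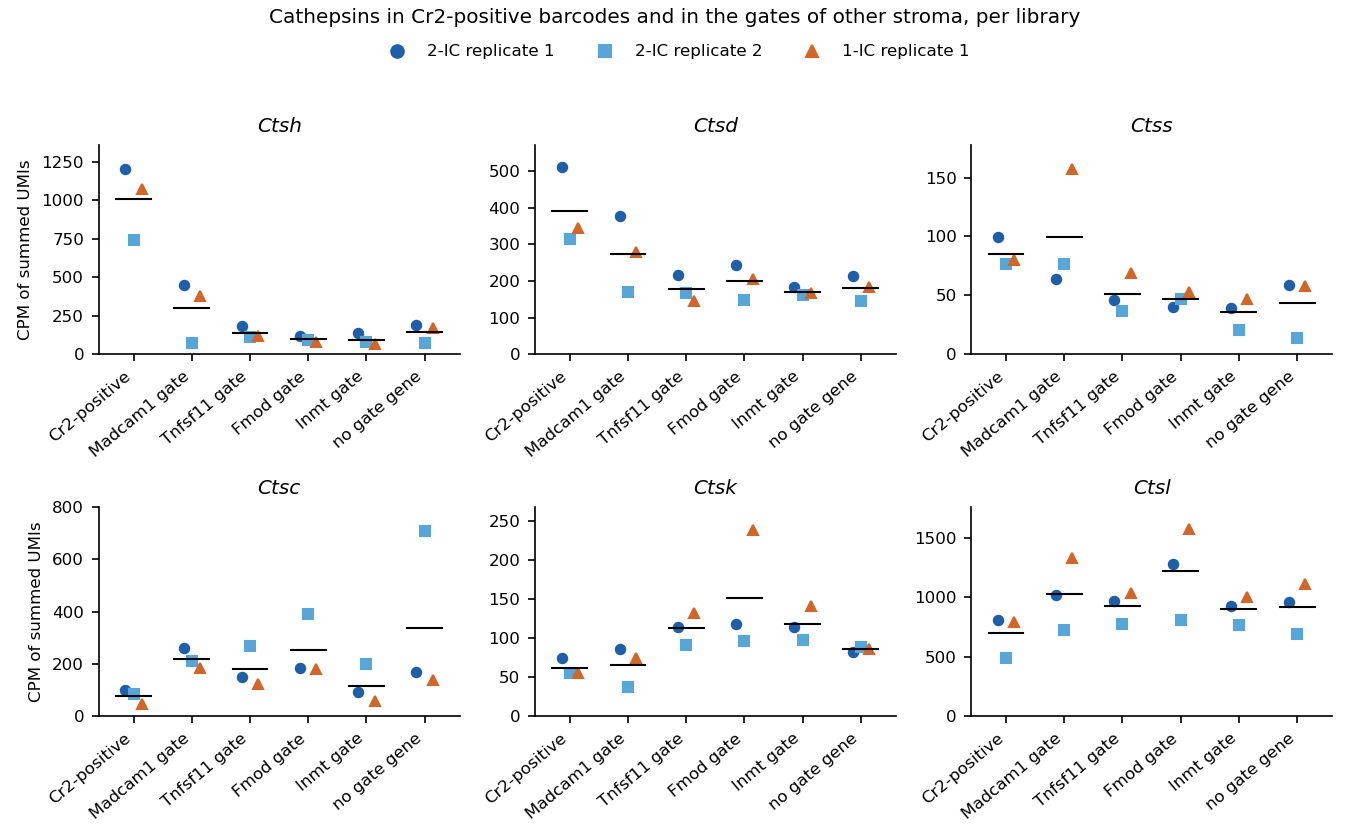
CPM of summed UMIs (y axis, from 0) of cathepsins in Cr2-positive barcodes and the 5 gates of other stroma (x axis); each point is 1 library and each bar the mean of 3 libraries. Ctsh in the Madcam1 gate is at 448.5, 70.8 and 379.9 CPM, between the Cr2-positive barcodes and the other gates in 2 of 3 libraries.

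Cr2-positive barcodes were also fitted against each gate, an analysis added after the data were seen. Against the Madcam1 gate, whose FDC list reached 15803 to 24316 CPM, 3 cathepsins were called, where 4.0% of all genes were. Ctsh was higher by 1.94 ± 0.23 (SE; 3.84-fold, adjusted p 9.12e-07), Ctsd was higher by 0.61 (adjusted p 0.0373) and Ctsc was lower (-1.37, adjusted p 0.0106). Ctss (0.13) and Ctsk (-0.00) were not called against this gate. Against the Tnfsf11, Fmod and Inmt gates, where 19.7%, 20.4% and 24.3% of all genes and 7 of 10 cathepsins each were called, Ctsh was higher by 2.89, 3.27 and 3.33, Ctsd by 1.16, 0.98 and 1.14 and Ctss by 0.92, 0.83 and 1.29. Against barcodes with no gate gene, where 13.8% of genes and 6 of 10 cathepsins were called, the values were 2.81, 1.10 and 0.90. Ctsk was lower in Cr2-positive barcodes than in the Tnfsf11 (-0.74), Fmod (-1.04) and Inmt (-0.90) gates. Ctsc was lower than in the Tnfsf11 (-1.03), Fmod (-1.54) and ungated (-1.83) barcodes. Ctsb, which had not passed against other stroma as a whole, was lower than in the Tnfsf11 (-0.52), Fmod (-0.60), Inmt (-0.55) and ungated (-0.54) barcodes. These log2 fold changes of Ctsb lie near the -0.52 found against other stroma as a whole, in a fit with fewer sums. The remaining calls were lower too: Ctsl against the Fmod (-0.81), Inmt (-0.44) and ungated (-0.42, adjusted p 0.0492) barcodes, Ctsa against the Tnfsf11 gate (-0.71, adjusted p 0.0217) and Ctso against the Inmt gate (-0.59, adjusted p 0.0491). Ctsz was called against no gate, with log2 fold changes from 0.02 to 0.25. After thinning to 2000 UMIs, with all 10 tested, 1 was called against the Madcam1 gate, 4 against Tnfsf11, 6 against Fmod, 4 against Inmt and 3 against ungated barcodes. Of all 3028 genes tested after thinning, 103, 541, 572, 721 and 389 were called, in the same order. The 1 cathepsin called against the Madcam1 gate after thinning was higher in Cr2-positive barcodes, so the call of Ctsc as lower was lost there. Without the shared barcodes, 8 of 10 were called against the Tnfsf11 gate and 8 of 10 against the Fmod gate. Of all 8139 genes tested, 1642 and 1683 were called there. The numbers of cathepsins called against the Madcam1, Inmt and ungated barcodes did not change. Without the library as a block, 96, 649, 700, 875 and 411 of all 8119 genes were called against the Madcam1, Tnfsf11, Fmod, Inmt and ungated barcodes. The cathepsins called under that setting are not given here.

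Cr2-positive barcodes were next divided by whether they held an Fcgr2b or Fcer2a UMI. These genes encode the low-affinity receptors for IgG and IgE, and the study uses them to mark central FDCs. There were 58, 18 and 23 barcodes with such a UMI and 71, 17 and 15 without. Of the 9 cathepsins with enough UMIs, Ctsh alone was called, where 4.21% of 3299 genes were. With an Fc receptor UMI, Ctsh was at 1830.2 CPM in 2-IC replicate 1, 1081 in 2-IC replicate 2 and 1371.5 in 1-IC. Without one it was at 557, 406.5 and 477 CPM, so the 2 sets did not overlap. The log2 fold change was 1.55 ± 0.20 (SE; 2.93-fold, adjusted p 0.00151), and those of the other 8 lay between -0.76 for Ctsa and 0.32 for Ctsd, with adjusted p-values of at least 0.333.

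Cr2 itself moved with this split, at 1569.5, 2396 and 1216 CPM with and 629, 383 and 477 CPM without an Fc receptor UMI. Median UMIs were 6328, 9810 and 7537 against 5028, 13430.0 and 7063, so depth was not higher in all 3 libraries. Ctsh was not called without 2-IC replicate 1 (1.51, adjusted p 0.102) or when 2 UMIs of a gate gene were required (0.88, adjusted p 0.342). Without an Fc receptor UMI, Ctsh was still above other stroma (169, 96.2 and 126 CPM) in every library.

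Malat1, a long RNA that stays in the nucleus, was under 1% of UMIs in 27, 10 and 10 Cr2-positive barcodes and at or over 1% in 102, 25 and 28. Ctsh was at 2189, 2181.5 and 1658 CPM where Malat1 was low and at 1044, 492 and 1006 CPM where it was ample. Every low-Malat1 library was above every ample one, but the adjusted p was 0.0679 (log2 fold change 1.09 ± 0.31, SE). Without 2-IC replicate 1 it was called (1.14, adjusted p 0.0141). Of 9 cathepsins tested by edgeR none was called, where 5.25% of 2857 genes were and the median log2 fold change of all genes was -0.11, while 3 had an unadjusted p under 0.05 and DESeq2 called 0. The other two were Ctss, at 161, 148 and 237 against 89.5, 64.6 and 61.7 CPM (adjusted p 0.143), and Ctsk, at 28.4, 16.4 and 33.8 against 82.0, 61.8 and 57.8 CPM (adjusted p 0.126). Neither pair of ranges overlapped, but the low-Malat1 levels of Ctss rest on 17, 9 and 7 UMIs. The exact 95% intervals of its log2 ratio were -0.02 to 1.65, -0.10 to 2.36 and 0.42 to 3.30, and span 0 in both 2-IC libraries. The low-Malat1 levels of Ctsk rest on 3, 1 and 1 UMIs. Its intervals, -3.85 to 0.10, -7.28 to 0.72 and -6.17 to 1.93, all span 0. Median UMIs were 3305, 5774 and 3058.5 where Malat1 was low and 6040.0, 13706 and 9309 where it was ample. Low-Malat1 barcodes held more myeloid RNA (483 to 607 against 194 to 309.6 CPM) and more B cell RNA (869 to 1252 against 359.6 to 765 CPM), and their part was not tested. Within barcodes of ample Malat1, a comparison added after the data were seen and given with no test, Ctsh was at 1642, 654 and 1309 CPM with an Fc receptor UMI and 435, 367 and 477 CPM without.

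**Figure D5:**
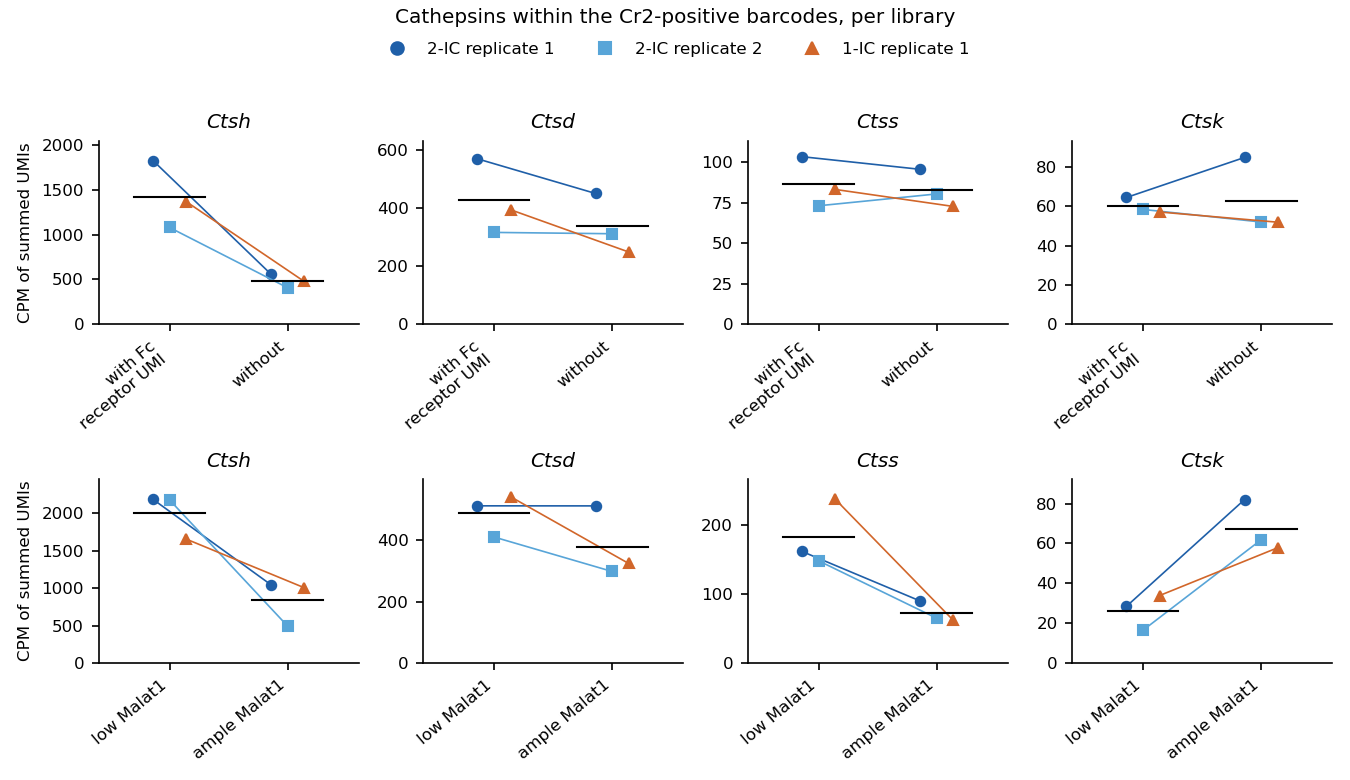
CPM of summed UMIs (y axis, from 0) of Ctsh, Ctsd, Ctss and Ctsk in Cr2-positive barcodes with or without a UMI of Fcgr2b or Fcer2a (top) and with low or ample Malat1 (bottom); points are libraries, lines join the values of 1 library and bars are means. Ctsh falls from 1830.2, 1081 and 1371.5 CPM to 557, 406.5 and 477 CPM between barcodes with and without an Fc receptor UMI.

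The conditions could be compared by size only, with 1 library of 1-IC. In Cr2-positive barcodes 2 of 10 cathepsins were at least 2-fold apart between 1-IC and 2-IC replicate 1, where 11.7% of genes were. These were Ctsa, at 24.2 CPM from 7 UMIs against 74.6 CPM, with a log2 ratio of -1.62 (exact 95% interval -3.00 to -0.49), and Ctsc, at 48.5 against 100.7 CPM, with -1.06 (-1.99 to -0.22). Against 2-IC replicate 2 only Ctsa of 9 was (-1.79, interval -3.21 to -0.60; background 26.6%), and none of 10 differed so between the 2-IC libraries (background 16.6%). Ctsh of 1-IC, at 1073 CPM, lay between the 2-IC libraries. In other stroma 0 of 10 were 2-fold apart between 1-IC and 2-IC replicate 1 (background 1.82%), and Ctsc alone was so for both comparisons with 2-IC replicate 2, at 10.4% and 5.43% of genes. Tyrobp-positive barcodes of 1-IC gave 3 of 10 and 4 of 9, where 35.0% and 55.1% of genes were that far apart, and 1 of 10 between the 2-IC libraries (34.3%). The intervals cover counting error only.

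The inhibitors, partners and companions of the cathepsins were counted in the contrast of Cr2-positive barcodes with other stroma, where 10.5% of all genes were higher and 9.37% lower. Of 22 inhibitors listed, 6 could be tested, 1 rose and 1 fell. Serpinb1a, an inhibitor of neutrophil serine proteases, was at 334 ± 37.9 against 94.0 ± 13.7 CPM (SD; log2 fold change 1.85, adjusted p 4.65e-08). Serpinb9, the inhibitor of granzyme B, was lower (-0.67, adjusted p 0.0355), while Cst3 and Cstb, which block papain-type cathepsins, gave -0.58 (adjusted p 0.348) and -0.20 (adjusted p 0.565). Of 12 further cathepsin genes only Ctsf had enough UMIs, and it was lower (25.7 ± 8.15 against 51.2 ± 1.26 CPM; -0.95, adjusted p 0.00959).

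Among 30 tested lysosomal hydrolases 3 rose and 2 fell, with a median of -0.26, so neither share was above that of all genes (10.5% and 9.37%). Arsb, the sulfatase that trims dermatan and chondroitin sulfate, was at 333 ± 108 against 32.6 ± 8.23 CPM (3.28, adjusted p 5.59e-11), and Ifi30, the thiol reductase of antigen processing, at 82.9 ± 34.9 against 25.5 ± 4.91 CPM (1.65, adjusted p 0.000184). Pla2g15, a lysosomal phospholipase, was lower (-0.93, adjusted p 0.0313). Of 15 tested subunits of the vacuolar ATPase, the proton pump that acidifies lysosomes, 3 rose and 0 fell, with a median of 0.37: Atp6v0a1 (1.58, adjusted p 3.28e-05), Atp6v1c1 (1.21, adjusted p 0.00505) and Atp6v0e (0.56, adjusted p 0.036). Among 13 membrane and transport genes 2 rose and 3 fell. Npc1, which exports cholesterol from lysosomes, was higher (1.43, adjusted p 0.000493), as was Cd63 (0.69, adjusted p 0.0359), whereas Lamp2 (-0.78, adjusted p 0.00758) and Grn (-0.66, adjusted p 0.02) were lower. None of 5 tested genes of class II processing was called (Cd74 0.40, adjusted p 0.497), and none of 3 transcription factors. Arsb and Serpinb1a were also higher in barcodes with an Fc receptor UMI, by 2.24 (adjusted p 0.00106) and 1.68 (adjusted p 0.00294). Both were higher in barcodes with low Malat1, by 1.75 (adjusted p 0.0205) and 1.91 (adjusted p 0.0245), where Ctsh did not pass.

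Genes with the most similar pattern were ranked by Pearson's r of log2 CPM over 21 sums (3 libraries by 7 classes and gates), among 7387 genes. The sums share libraries and depth, so the values describe likeness only. Nearest to Ctsh were Slc1a2, a glutamate transporter (r = 0.938), Pard6g (0.933) and Cd200 (0.924). For Ctss they were Aif1 (0.845) and Irf8 (0.841), known from myeloid cells and B cells, and Pnkd (0.806). Ctsk was most like Pld3 (0.892), Cd302 (0.867) and Pdia6 (0.865), and Ctsc most like Thbs1 (0.835). Ctsd was closest to Dap (0.872) and Ctsl to Krtcap2 (0.954), so these cathepsins differed in the genes they tracked.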

How the data were processed

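Single cells of 3 libraries (2 of 2-IC and 1 of 1-IC) were sequenced with 10x 3' chemistry. The authors deposited raw UMI counts per gene and barcode, with files written by Cell Ranger 5.0.0 per the file headers, although the methods name an older version; the build was GRCm38 with Ensembl release 89. Coordinates came from GENCODE M21 and promoter sequences from RefSeq. Barcodes were kept as stated above, and doublets called by Scrublet (scanpy 1.11.5, Python 3.11.15) were removed only in an alternative. Counts were summed per library and class and tested with edgeR 4.0.16 (R 4.3.3; TMM, filterByExpr, glmQLFTest, library as a block because sums of 1 library come from 1 suspension), with Benjamini-Hochberg adjustment over all genes tested and a threshold of 0.05; DESeq2 1.42.0 was an alternative. The procedure was run on simulated counts that held no library effect. That run cannot check the block, and its results are not given here. The rule for named genes took all 10 cathepsins, given by their range or their adjusted p-values where they did not pass; of each pathway list the most changed called genes and the most abundant ones are named, and the 3 genes most like each cathepsin were ranked. The members and lists were chosen with earlier results of these data known. Depth ranged from 3766526 to 20607903 UMIs per library, and the Tyrobp-positive sum of 1-IC was the smallest of the 3 classes, at 67857 UMIs, which limits its precision. The methods tested over cells, which was not done here.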

Additional observations from a re-analysis of the deposited data

Results flagged for a closer look

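Of 47 log2 ratios with UMIs in all 3 libraries, 9 went one way in the 1-IC library and the other in both 2-IC libraries. The share of all genes with such a pattern was not computed, so the count is not read as a trait of the cathepsins. Exact 95% intervals of the 1-IC ratios are given in brackets, cover counting error only and span 0 in 8 of the 9. With 1 library on one side these differences were not tested. Between Cr2-positive barcodes and other stroma, Ctso had a log2 ratio of 0.19 in 1-IC (-0.84 to 1.10) and of -0.27 and -0.40 in the 2-IC libraries. Between Tyrobp-positive barcodes and other stroma, 1-IC gave -0.14 (-0.74 to 0.40) for Ctsb (0.12 and 0.18 in 2-IC), -0.75 from 7 UMIs (-2.07 to 0.31) for Ctsd (0.18 and 0.42) and 0.28 from 3 UMIs (-2.04 to 1.90) for Ctso (-0.02 and -0.23). Between Cr2-positive and Tyrobp-positive barcodes, Ctsl was at 0.08 in 1-IC (-0.36 to 0.55), with -0.28 and -0.20 in 2-IC, and Ctss at -1.89 (-2.82 to -0.95), with 0.01 and 0.16. The Tyrobp level of these barcodes was 648 CPM in 1-IC and 307 and 80.8 CPM in 2-IC.
Within Cr2-positive barcodes, the log2 ratio with over without an Fc receptor UMI was 0.03 (-0.65 to 0.74) for Ctsb in 1-IC, with -0.52 and -0.22 in 2-IC, and 0.35 (-0.08 to 0.78) for Ctsl, with -0.58 and -0.59. For low over ample Malat1, Ctsz was at 0.85 in 1-IC (-0.03 to 1.64), with -0.01 and -0.19 in 2-IC.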

How the results depend on the processing

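Beside the values above, the number of cathepsins called was recomputed under each alternative. Without the replicate block it was 1 for Cr2-positive barcodes against other stroma (5 with it), 0 for Tyrobp-positive barcodes against other stroma (1 with it), 1 between Cr2-positive and Tyrobp-positive barcodes (3 with it) and 0 among the gates (3 with it), and it changed no call of the Fc receptor and Malat1 splits. Leaving out 1 library at a time gave 4 to 6 for Cr2-positive barcodes against other stroma, 0 to 1 for Tyrobp-positive barcodes against other stroma, 1 to 3 between Cr2-positive and Tyrobp-positive barcodes, 0 to 1 for each of the Fc receptor and Malat1 splits and 2 to 5 among the gates. Calls among all genes then ranged from 648 to 1168, 18 to 69 and 188 to 481 in the first 3 comparisons, with 5924 to 7706 genes tested. They were 14 to 271 in the Fc receptor split (3436 to 4720 tested), 38 to 406 in the Malat1 split (2739 to 3757) and 425 to 783 among the gates (6932 to 10171). Without the block the calls among all genes fell from 1251 to 473, 36 to 5 and 548 to 176 of 6298 in the first 3 comparisons, from 948 to 165 of 8250 among the gates, from 139 to 30 in the Fc receptor split and from 150 to 13 in the Malat1 split. Thinning to 2000 UMIs gave 3 for Cr2-positive barcodes and 0 for Tyrobp-positive barcodes against other stroma, among 7 cathepsins that could still be tested (Ctsa, Ctso and Ctss could not). Of all 1854 genes tested after thinning, 416 and 16 were called. Allowing contaminant genes gave 6 for Tyrobp-positive barcodes against other stroma and 6 among the gates, where calls among all genes went from 36 of 6298 to 1868 of 11228 and from 948 of 8250 to 2176 of 9936. A limit of 5% mitochondrial UMIs gave 0 for Tyrobp-positive barcodes against other stroma, where 4 of 5788 genes were called. Removal of shared barcodes also gave 0 in that comparison, where 13 of 5935 genes were called. A minimum of 2 gate UMIs gave 0 in the Fc receptor split, where 2 of 2522 genes were called. For Cr2-positive barcodes against other stroma the same minimum added Ctsb and Ctsl, where 1575 of 6937 genes were called. In that comparison, leaving out the filter on low counts added Ctsa and Ctsb, where 1727 of 22697 genes were called. With no minimum of stromal UMIs Ctsb was added there, where 1286 of 6250 genes were called. Library totals without scaling, no minimum of stromal UMIs, and counting barcodes with both genes as Cr2-positive each gave 1 in the Malat1 split. Calls among all genes were 199 of 2857, 151 of 2922 and 258 of 3056 under these settings. With Tyrobp-positive barcodes low in stromal RNA, 6 were called against other stroma and 6 against Cr2-positive barcodes, and signs turned for Ctsd (-1.24) and Ctsb (-1.07) against other stroma and for Ctsk (9.81, against a class at 0) and Ctsl (4.18) in Cr2-positive against Tyrobp-positive barcodes; this set holds other barcodes by construction. Where no value shows it, the cause was not tested. Depth limits Ctsa, Ctso and Ctss, which could not be tested after thinning. It also limits Ctsk, which had fewer UMIs than Ctss in Cr2-positive barcodes of every library. Ctso had too few UMIs for the Malat1 and Fc receptor splits unless contaminant genes were allowed.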
